A study of Homo sapiens with 6 samples.

Results

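The genes of the protein kinase C (PKC) isoforms were examined in SH-SY5Y cells after knockdown of PSF. Of 8 isoform genes listed by name, 7 had a row among the 21301 genes of the table: PRKCA (conventional class), PRKCD, PRKCE, PRKCH and PRKCQ (nPKC class), and PRKCI and PRKCZ (atypical class). PRKCB, of the conventional class, had no row and was not analysed here. The isoforms were chosen by name and by the presence of read counts in the siControl and siPSF libraries, with values of this comparison already known, so their differences between the groups are given as a description, and no p-value is given for them.

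PKC enzymes are serine/threonine kinases that act downstream of phospholipase C, which splits a membrane lipid into diacylglycerol and IP3. Conventional isoforms respond to diacylglycerol and calcium, nPKC isoforms to diacylglycerol without calcium, and atypical isoforms to neither, being directed by partner proteins of the cell polarity complex. Phorbol esters, which imitate diacylglycerol, are long known to drive neurite outgrowth in cultured neuroblastoma cells.

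SH-SY5Y is a human neuroblastoma line used as a model of neuronal cells. The cells received siControl or siPSF, a small interfering RNA against PSF, at 10 nM for 72 h, and each group holds 3 libraries. PSF is an RNA-binding protein encoded by SFPQ, and only 1 siRNA against it (siPSF #2) was sequenced. All cells are of the same line, and nothing else distinguishes the groups in the labels. The comparison addresses which transcripts depend on PSF in these cells.

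The libraries summed to between 101540520 and 132420931 counts. Levels of a gene across libraries are given as CPM, counts scaled to a common library total with edgeR's TMM factors, and levels of different genes as FPKM, which is per length of transcript. SFPQ, the targeted gene, stood at 372, 356 and 401 CPM in siControl and at 209, 193 and 165 CPM in siPSF, so that the groups did not overlap. Its log2 fold change was -0.99 (SE 0.10, edgeR adjusted p 9.51e-05), which left 50.2% of the siControl level. Of the markers of noradrenergic neuroblastoma, 8 of 8 had a row, and their summed level was 4505 to 4919 CPM in siControl and 4016 to 4490 CPM in siPSF. The members differed in direction, since DBH fell from a mean of 1738 to 1085 CPM (edgeR adjusted p 0.00241), GATA3 rose from 400.3 to 493 CPM (edgeR adjusted p 0.0322) and the other 6 did not pass the test. Of the mesenchymal markers, 5 of 6 had a row, with a summed level of 85.6 to 90.9 CPM in siControl and 61.2 to 70.4 CPM in siPSF. FN1 made up most of that sum and fell from 78.7 to 52.0 CPM (edgeR adjusted p 0.000852), TNC fell from 2.72 to 1.51 CPM (edgeR adjusted p 0.00937), and COL1A2, FOSL1 and COL1A1 did not pass, the last pair at 178% and 146% of siControl. Of the markers of other cell types, 1 of 6 had a row (CD68), at 2.14 to 2.98 CPM in siControl and 2.56 to 3.32 CPM in siPSF. The part of these marker levels in the results below was not tested.

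The start regions of PRKCA and PRKCH are shown because these were the isoform genes that were more than 2-fold lower in siPSF in the edgeR fit. Each sequence is the 250 bases before a RefSeq transcription start on GRCh38.p14, 5′ to 3′ on the plus strand, and capitals mark the GC box (GGGCGG, searched on both strands). PRKCA lies at chr17:66302363-66302612 and PRKCH at chr14:61321329-61321578, which is inside the span RefSeq gives for the gene.
PRKCA: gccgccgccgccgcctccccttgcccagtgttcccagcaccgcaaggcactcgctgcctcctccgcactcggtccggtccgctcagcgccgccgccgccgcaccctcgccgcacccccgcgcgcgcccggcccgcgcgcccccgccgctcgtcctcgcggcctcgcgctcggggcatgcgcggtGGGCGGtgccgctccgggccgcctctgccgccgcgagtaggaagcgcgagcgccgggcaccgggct
PRKCH: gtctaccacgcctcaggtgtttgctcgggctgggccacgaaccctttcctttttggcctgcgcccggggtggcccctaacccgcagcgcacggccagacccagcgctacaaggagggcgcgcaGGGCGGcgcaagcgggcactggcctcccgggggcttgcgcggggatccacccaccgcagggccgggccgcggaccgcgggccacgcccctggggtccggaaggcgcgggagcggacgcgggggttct
The PRKCA stretch was 82% G or C with 47 CpG, and the PRKCH stretch 75.2% with 30 CpG. RefSeq windows of 300 bases, from 250 before to 50 after a start, were found for 8 of the 8 listed genes, 13 windows in all. Across all 35116 windows of the genome the median was 58.7% G or C and 14 CpG. A GC box was present in 10 of the 13 isoform windows and in 45% of all windows. The most were 10 in a single PRKCZ window, whereas the PRKCZ windows that start at 2073821 and 2104466 and the PRKCQ window had none. The PRKCQ window was the only isoform window with a TATA box (TATAAA, present in 11.5% of all windows). The AP-1 letters TGACTCA, a motif linked to phorbol ester responses, were in 0 of the 13 windows and in 4.95% of all windows. PRKCA, PRKCE and PRKCH, which were lower in siPSF, and PRKCI, PRKCD and PRKCZ each had at least 1 window with a GC box. These matches are a description of letters in the windows and say nothing of factor binding.

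In the edgeR fit over all 19694 genes tested, 8.27% of the genes were called lower in siPSF (adjusted p under 0.05) and 6.65% higher. Of the 7 isoform genes, 3 were among the lower ones (PRKCA, PRKCE and PRKCH) and 0 among the higher ones. The libraries of the groups did not overlap for the same 3 isoform genes, against 34.4% of all genes tested. Because the isoforms were chosen with this contrast known, these counts only describe the choice, and nothing is read from them. The median log2 fold change was 0.02 over the 7 isoform genes and 0.01 over all genes tested. In RNA from whole cultures, fewer cells of a type and less RNA per cell cannot be told apart.

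PRKCA encodes PKC alpha, a conventional isoform, on chromosome 17 from 66302613 to 66810743 (GRCh38, 508 kb, gene ID 5578). It stood at 514, 468 and 518 CPM in siControl and at 212, 206 and 172 CPM in siPSF. Every siPSF library was below every siControl library, and the mean moved from 500.1 ± 28.2 to 196 ± 21.6 CPM (SD, n = 3). The log2 fold change was -1.35 (SE 0.10), which left 39.3% of the siControl level and ranked 256 from the largest fall among all genes tested. The counts behind it ran from 16922 to 65287 per library, so counting error was small beside the spread between libraries.

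Of the nPKC isoforms, PRKCH and PRKCE were lower in siPSF. PRKCH encodes PKC eta (chromosome 14, 61187468 to 61550976, 364 kb, gene ID 5583) and stood at 4.42, 4.66 and 5.45 CPM in siControl and at 2.24, 2.43 and 2.32 CPM in siPSF. The siPSF libraries lay close together and under all siControl libraries, with a log2 fold change of -1.06 (SE 0.15) and 48.1% of the siControl level left. Its counts ran from 229 to 687 per library, and those of PRKCQ, the other isoform gene with few counts, from 422 to 559. PRKCE encodes PKC epsilon, which is abundant in the nervous system (chromosome 2, 45651279 to 46187990, 537 kb, gene ID 5581). It stood at 14.8, 15.7 and 18.9 CPM in siControl and at 12.2, 12.5 and 12.4 CPM in siPSF. The groups did not overlap, but the log2 fold change was smaller, at -0.41 (SE 0.11), with 75.2% of the siControl level left. Over the 6 fits that left out 1 library, the log2 fold change ran from -0.48 to -0.30 for PRKCE, from -1.12 to -0.97 for PRKCH and from -1.41 to -1.26 for PRKCA.

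The other nPKC isoforms overlapped between the groups. PRKCD, which encodes PKC delta, a kinase known for roles in apoptosis (chromosome 3, 53161209 to 53192717, gene ID 5580), stood at 11.4, 11.5 and 10.7 CPM in siControl and at 10.9, 11.1 and 14.1 CPM in siPSF. Only siPSF replicate 3 was above the siControl range, and the log2 fold change was 0.10 (SE 0.12). PRKCQ, which encodes PKC theta, best known from T cells (chromosome 10, 6394097 to 6580646, gene ID 5588), stood at 4.59, 3.17 and 3.53 CPM in siControl and at 4.71, 4.78 and 4.28 CPM in siPSF. Its groups overlapped through siControl replicate 1, and its log2 fold change of 0.29 (SE 0.16) was the highest of the isoform genes. The 3 lower genes thus had log2 fold changes from -1.35 to -0.41, and the other 4 ran from 0.02 to 0.29.

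Both atypical isoforms stayed within the siControl spread or close to it. PRKCI, which encodes PKC iota (chromosome 3, 170222424 to 170305977, gene ID 5584), stood at 36.8, 33.1 and 43.6 CPM in siControl and at 40.7, 34.8 and 39.7 CPM in siPSF. All siPSF values lay inside the siControl range, and the log2 fold change was 0.02 (SE 0.11). PRKCZ, which encodes PKC zeta (chromosome 1, 2048504 to 2185395, gene ID 5590), stood at 42.7, 40.9 and 37.3 CPM in siControl and at 41.1, 44.7 and 43.2 CPM in siPSF. The groups overlapped and the log2 fold change was 0.09 (SE 0.09).

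Some isoform genes share ground with other genes, and whether strand was used in counting is not given in the sources used here. PRKCQ overlaps its antisense RNA PRKCQ-AS1, which stood at 2.81 ± 0.366 CPM in siControl and at 3.47 ± 0.411 CPM in siPSF (log2 fold change 0.31, edgeR adjusted p 0.229). PRKCZ overlaps PRKCZ-AS1, at 3.58 ± 0.831 and 4.41 ± 0.702 CPM (0.30, edgeR adjusted p 0.307), and FAAP20, at 79.4 and 85.5 CPM (0.11). PRKCH overlaps TMEM30B, which averaged 0.108 CPM in siControl but 0.204 in siPSF. All of these lie on the opposite strand, so counts of PRKCQ, PRKCZ and PRKCH and of their neighbours are uncertain to that extent. PRKCA, PRKCD, PRKCE and PRKCI overlap no other row of the table that has a gene position. RefSeq names 1 pseudogene of PRKCI, which has no row, so the counts of PRKCI are uncertain to that extent.

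Per length, PRKCA was the most abundant isoform transcript in both groups, at 52.7 ± 3.89 FPKM in siControl and 21.0 ± 2.05 FPKM in siPSF. In siControl it was followed by PRKCZ (15.6 ± 0.934), PRKCI (7.30 ± 1.19), PRKCD (3.63 ± 0.0735), PRKCE (2.63 ± 0.407), PRKCH (1.29 ± 0.264) and PRKCQ (1.07 ± 0.203 FPKM). The library ranges of neighbours in that order did not overlap, except those of PRKCH with PRKCQ. In siPSF the first 5 places were the same, followed by PRKCQ (1.26 ± 0.0886) and PRKCH (0.531 ± 0.0187 FPKM), and no neighbours overlapped. PRKCH thus moved from the sixth place to the last. The plot of levels by library shows PRKCA, PRKCE and PRKCH as the genes with separate groups.

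**Figure D1:**
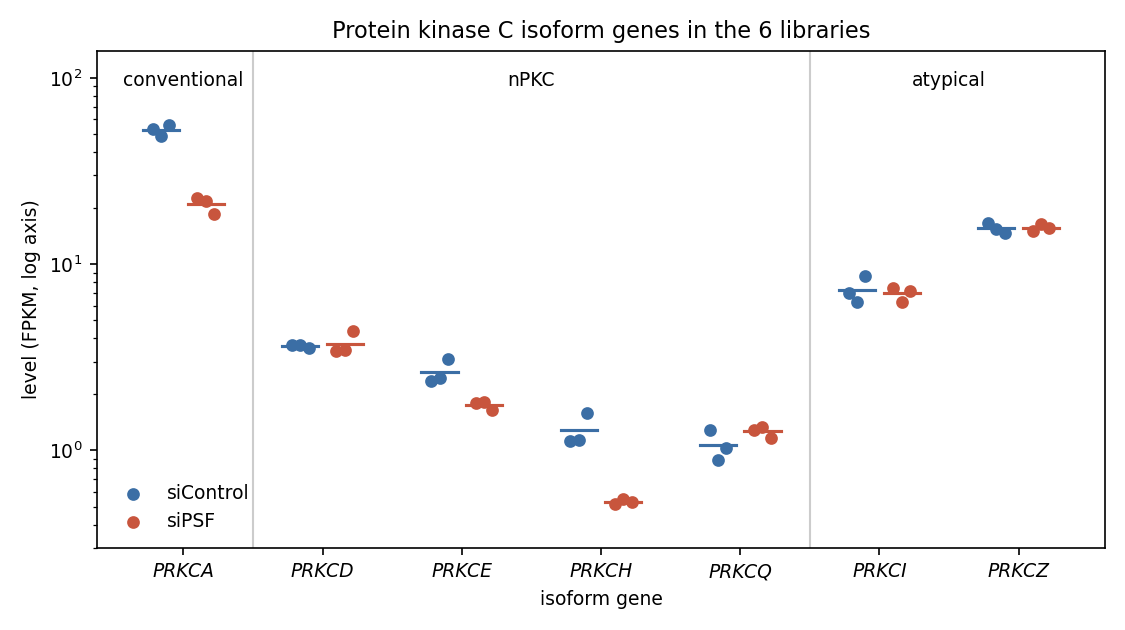
Level of each isoform gene in FPKM (log axis) in the 3 siControl and 3 siPSF libraries; points are libraries and bars are group means. PRKCA lies between 48.5 and 56.2 FPKM in siControl and between 18.7 and 22.6 FPKM in siPSF, and PRKCH between 1.13 and 1.59 FPKM and between 0.515 and 0.551 FPKM, whereas PRKCZ and PRKCI overlap between the groups.

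FPKM and counts did not give the same ratio in every library. The counts per FPKM were first divided by the library's own median ratio over genes with higher counts, and then set to the median of the gene. Differences of scale between whole libraries are thus taken out. On that scale the values were 103%, 102.9% and 102.7% for PRKCA in siControl and 97.25%, 96.11% and 93.4% in siPSF. For PRKCH they were 94.86%, 98.53% and 86.3% in siControl and 101.9%, 101.5% and 101.5% in siPSF, and for PRKCE 97.22%, 98.8% and 97.87% against 102.3%, 101.2% and 110.6%. For PRKCD they were 100.3%, 100.8% and 101.1% against 99.68%, 98.69% and 99.0%, and for PRKCQ 100.3%, 100.1% and 100% against 99.99%, 96.05% and 98.65%. How often the groups separate in this ratio among all genes was not examined, so a separation is not read as a trait of the isoform genes. The ratio stayed within 3.95% of the median for the isoform genes other than PRKCA, PRKCE and PRKCH. The cause was not tested.

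The makeup of the isoform pool differed between the groups. The 7 isoform genes summed to 84.3 ± 5.29 FPKM in siControl and 51.0 ± 1.56 FPKM in siPSF, while the 6 genes other than PRKCA summed to 31.6 ± 1.41 and 29.99 ± 0.493 FPKM. All genes of the table summed to 424366 to 454381 FPKM in siControl and 473437 to 482571 FPKM in siPSF. These FPKM sums are therefore not on the same scale in the groups, whereas shares within a library do not depend on that scale. The conventional class, here PRKCA alone, made up 62.5%, 61.8% and 63.3% of the sum in siControl and 43.3%, 42.2% and 38.0% in siPSF. The atypical class made up 27.6%, 27.8% and 26.3% in siControl and 43.3%, 43.9% and 46.4% in siPSF. The nPKC class made up 9.88%, 10.4% and 10.4% in siControl and 13.4%, 13.8% and 15.6% in siPSF. The groups did not overlap for any class. These shares sum to a fixed total, so a lower PRKCA raises the others, and the mean atypical share was 27.2% in siControl and 44.5% in siPSF, while PRKCI and PRKCZ themselves had log2 fold changes of 0.02 and 0.09. The shares are a description and were not tested.

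**Figure D2:**
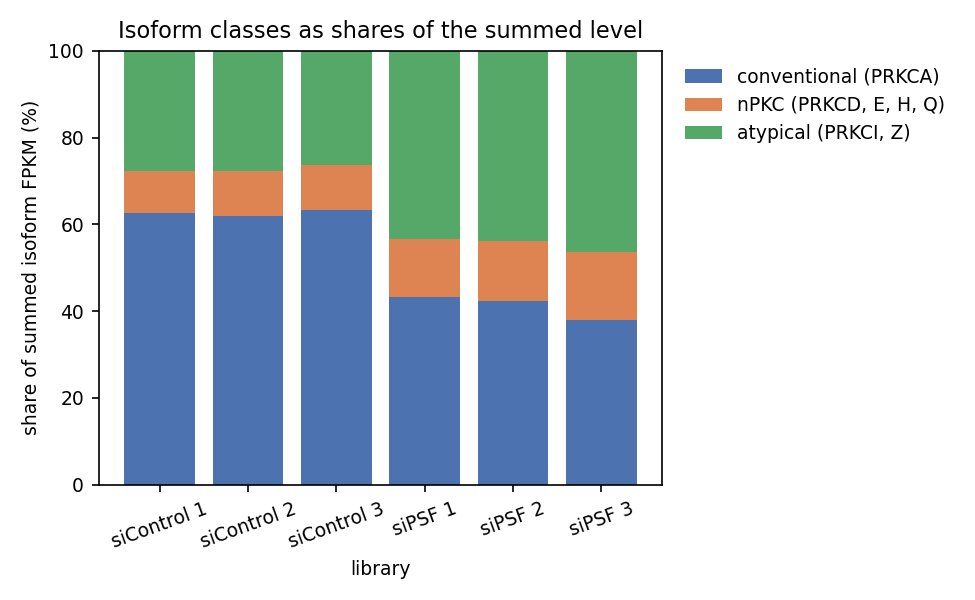
Share of the summed FPKM of the 7 isoform genes (percent, y axis) held by the conventional, nPKC and atypical classes in each of the 6 libraries. The conventional share is 61.8% to 63.3% in siControl and 38.0% to 43.3% in siPSF.

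The isoform genes differ in length, which was not used to choose them, and the lower ones are long. PRKCE (537 kb), PRKCA (508 kb) and PRKCH (364 kb) are the 3 longest of the 7 isoform genes with a row. They are followed by PRKCQ (187 kb) and PRKCZ (137 kb), whose groups overlapped, and by PRKCI (83.6 kb) and PRKCD (31.5 kb). Over these 7 genes, which share the same 6 libraries, log2 fold change and gene length had a Spearman rho of -0.64, and log2 fold change and log10 length a Pearson r of -0.70, given as a description. Among all tested protein-coding genes, the median log2 fold change was 0.08 under 10 kb (3058 genes, 2.98% called lower), 0.03 from 10 to 100 kb (8590 genes, 5.24%), -0.15 from 100 to 400 kb (2400 genes, 20.7%) and -0.58 at 400 kb or more (370 genes, 53.8%). PRKCA lay below the middle range of its length class (-1.0 to -0.21), and PRKCE lay within it. PRKCH lay below the range of its class (-0.35 to 0.04), whereas PRKCQ and PRKCZ, of the same class, lay above it. The plot of change against gene length shows these positions.

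**Figure D3:**
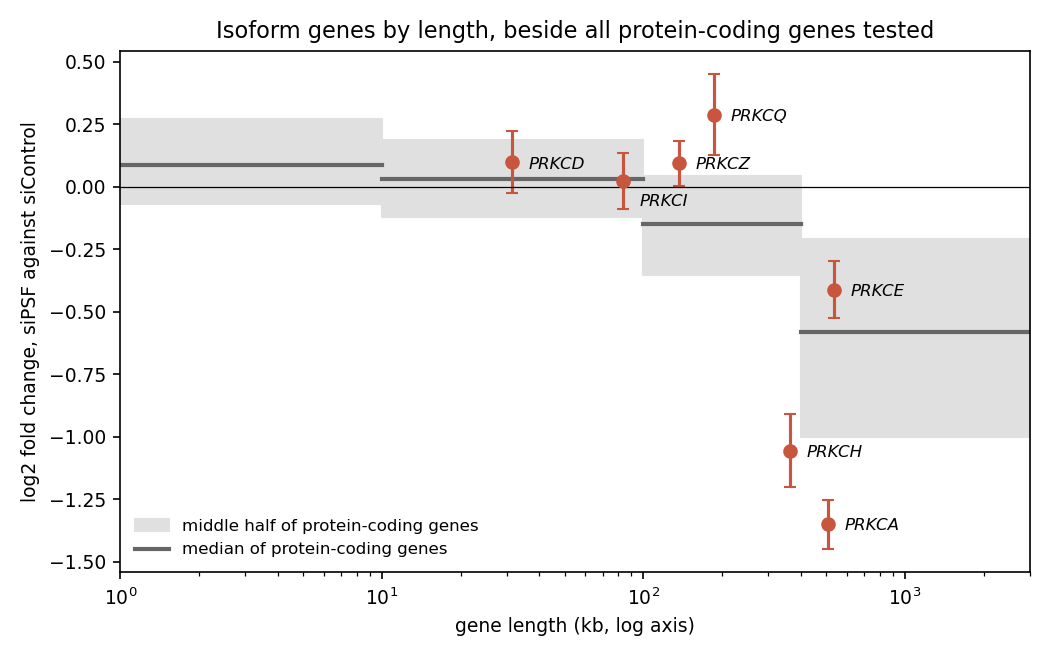
Log2 fold change, siPSF against siControl (y axis), against gene length in kb (log axis) for the 7 isoform genes with a row; bars are standard errors, grey boxes the 25th to 75th percentile and lines the median of all tested protein-coding genes in each length class. PRKCA and PRKCH lie below the box of their class, PRKCE within it and PRKCQ and PRKCZ above it.

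The genes whose centred log2 CPM over the 6 libraries lay nearest to that of PRKCA, compared over the 14678 genes that averaged 1 CPM or more, were DPP6 (root mean square difference 0.0641, log2 fold change -1.38), GABRA3 (0.0692, -1.34) and CNTNAP2 (0.0711, -1.48). Their means were 17.0 and 6.51 CPM for DPP6, 5.58 and 2.19 CPM for GABRA3, and 25.8 and 9.27 CPM for CNTNAP2, in siControl and siPSF. Genes picked in this way have log2 fold changes like that of PRKCA by construction. DPP6, GABRA3 and CNTNAP2 encode neuronal membrane proteins, and the genes are 1146, 285 and 2304 kb long. For PRKCQ the nearest were SH3RF1 (0.0387, log2 fold change 0.25), CBX6 (0.0421, 0.25) and GPRASP2 (0.0548, 0.24). Their lengths are 177, 10.8 and 5.29 kb.

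Genes around PKC were taken from 8 lists by role, and 72 of the 83 genes listed were tested. The lists were written with earlier results of these data known. Of these, 8 were lower (11.1%), 2 were higher (2.78%) and 62 did not pass the test, with a median log2 fold change of -0.03. For comparison, 8.27% of all genes were called lower and 6.65% higher. All 8 lower genes were among the 29 tested list genes of 100 kb or more (median -0.18), and both higher genes were among the 43 shorter ones (median 0.04, none lower). Among all tested protein-coding genes, 20.7% of those from 100 to 400 kb and 53.8% of those at 400 kb or more were called lower. The split by length is thus not particular to these lists. The adjusted p-values below are from edgeR over all genes tested.

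Upstream of PKC, 2 of 11 tested phospholipase C genes fell, 0 rose and 9 did not pass (median 0.14). PLCB1, an enzyme that receptors activate through Gq and that makes diacylglycerol and IP3, stood at 8.76, 10.1 and 10.2 CPM in siControl and at 4.90, 4.87 and 3.43 CPM in siPSF. The groups did not overlap, and the change was -1.14 on the log2 scale (SE 0.15, edgeR adjusted p 0.00059). PLCB4, its relative, stood at 31.8, 33.2 and 40.0 CPM in siControl and at 27.9, 24.1 and 27.3 CPM in siPSF (-0.40, SE 0.11, edgeR adjusted p 0.0282). The PLCB4 call was lost without siControl replicate 2, siControl replicate 3, siPSF replicate 1 or siPSF replicate 2 (edgeR adjusted p 0.0628, 0.0895, 0.0506 and 0.0922). PLCG1, the most abundant of the list and the form activated by receptor tyrosine kinases, stood at 280 ± 13.1 and 260.0 ± 16.1 CPM (-0.10, edgeR adjusted p 0.442). Of the Gq family alpha subunits, 2 were tested and none passed, with GNA11 the most abundant (-0.09, edgeR adjusted p 0.529) and a list median of -0.19.

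Diacylglycerol kinases, which turn diacylglycerol into phosphatidic acid, had 1 of 9 tested genes lower and 0 higher (median -0.05). DGKH stood at 24.0, 24.7 and 31.5 CPM in siControl and at 18.5, 17.1 and 18.4 CPM in siPSF (-0.57, SE 0.12, edgeR adjusted p 0.00678). DGKZ, the most abundant, did not pass (0.01, edgeR adjusted p 0.947). Of the genes of IP3 receptors and IP3 metabolism, 1 of 8 fell and 0 rose (median -0.10). ITPR2, a channel that releases calcium from the endoplasmic reticulum, stood at 7.95, 9.47 and 11.4 CPM in siControl and at 4.44, 3.29 and 3.26 CPM in siPSF (-1.39, SE 0.17, edgeR adjusted p 0.000337). ITPR1, the more abundant receptor, stood at 217 ± 18.2 and 182 ± 6.86 CPM and did not pass (-0.25, SE 0.09, edgeR adjusted p 0.0666). ITPR1 passed in DESeq2's Wald test, in limma on FPKM with and without rescaling, and with a replicate block.

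Of the other proteins with a diacylglycerol-binding C1 domain, 1 of 8 fell and 0 rose (median -0.13). CHN2, a Rac GTPase-activating protein of the chimaerin family, stood at 1.16, 1.12 and 1.45 CPM in siControl and at 0.547, 0.133 and 0.538 CPM in siPSF (-1.61, SE 0.38, edgeR adjusted p 0.0154). Its call was lost without siControl replicate 3 (edgeR adjusted p 0.0834), and the log2 fold change was -1.19 without siPSF replicate 2. CHN1, the most abundant of the list, did not pass (-0.09, edgeR adjusted p 0.526). Another list held PKC-related kinases and enzymes that prime PKC by phosphorylation, with subunits of their complexes and the phosphatases PHLPP1 and PHLPP2. Of its genes, 1 of 10 fell and 0 rose (median -0.10). MTOR, the kinase of a complex that phosphorylates PKC among others, stood at 127, 136 and 137 CPM in siControl and at 103, 116 and 109 CPM in siPSF (-0.28, SE 0.08, edgeR adjusted p 0.035). This call was lost without siControl replicate 2, siControl replicate 3 or siPSF replicate 1 (edgeR adjusted p 0.11, 0.0694 and 0.159).

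Of the substrates and anchors of the diacylglycerol-responsive PKC classes, 0 of 13 fell and 1 rose (median 0.05). The gene that rose was RACK1, a scaffold for activated PKC that is also a component of the small ribosomal subunit, at 1690 ± 175 CPM in siControl and at 2588 ± 118 CPM in siPSF (0.61, SE 0.10, edgeR adjusted p 0.00151). RefSeq names 3 pseudogenes of RACK1, so its counts are uncertain to that extent. Of the atypical PKC partners, 2 of 11 fell and 1 rose (median 0.05). PARD3B, a relative of the polarity scaffold PARD3, stood at 3.07, 2.70 and 3.26 CPM in siControl and at 0.85, 0.729 and 0.71 CPM in siPSF (-1.98, SE 0.18, edgeR adjusted p 5.33e-05). PARD3, which binds atypical PKC in the polarity complex, stood at 73.0, 68.0 and 71.6 CPM and at 56.3, 55.3 and 52.9 CPM (-0.37, SE 0.08, edgeR adjusted p 0.00966). CDC42, a small GTPase that activates that complex, rose from 121 ± 17.3 to 175 ± 18.6 CPM (0.53, SE 0.11, edgeR adjusted p 0.00844). The CDC42 call was lost without siControl replicate 2 (edgeR adjusted p 0.0527) and in limma on FPKM (adjusted p 0.0581, and 0.156 after rescaling, with a log2 fold change of 0.26), and RefSeq names 7 pseudogenes of it. SQSTM1, an adaptor that binds atypical PKC and the most abundant partner, did not pass (0.10, edgeR adjusted p 0.653).

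**Figure D4:**
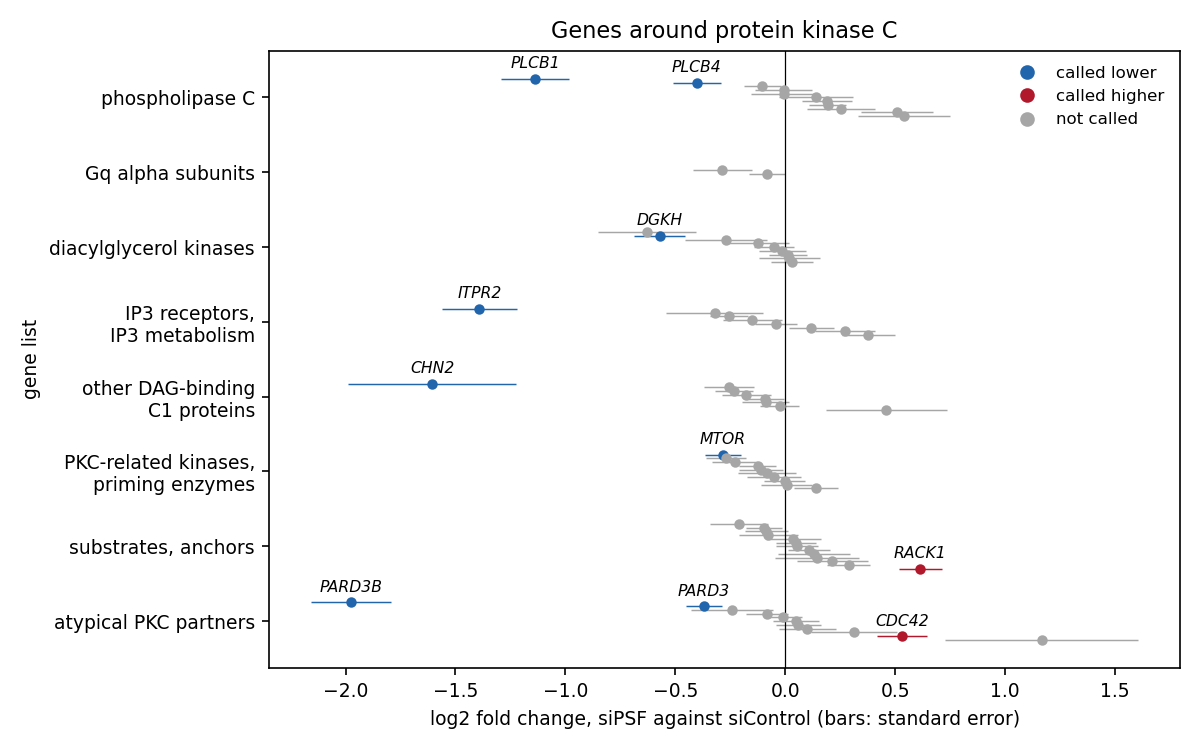
Log2 fold change, siPSF against siControl (x axis), of the 72 tested genes in the 8 lists around PKC (rows); bars are standard errors, and named points passed an edgeR adjusted p of 0.05. The 8 named genes on the left fell, from PARD3B at -1.98 to MTOR at -0.28, and RACK1 (0.61) and CDC42 (0.53) rose.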

How the data were processed

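SH-SY5Y cells treated with siControl or siPSF were sequenced as 3 libraries per group. The paper describes them as biological triplicates. Groups and replicate numbers came from the sample titles. In the table that the authors deposited, each gene has for every library a read count, not normalized, and an FPKM value. The paper's methods describe poly(A) selection, removal of rRNA reads with Bowtie 2, mapping with TopHat to hg38 and RefSeq genes, and call the FPKM unit RPKM. The submitters' processing notes instead name Trimmomatic, HISAT2 2.1.0, StringTie 2.1.3b and GRCh38. The labels name a stranded TruSeq kit and the paper another, the TruSeq RNA kit v2, which does not mark strand. Use of strand in counting is not given in the sources used here. No count is below 1, so genes without reads in some library were not analysed here.

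Counts were filtered with edgeR's filterByExpr (19694 of 21301 genes kept), scaled by TMM (factors 0.964 to 1.053) and compared by the quasi-likelihood F-test of edgeR. P-values were adjusted by Benjamini-Hochberg across the genes kept, at a threshold of 0.05. Replicate libraries differed by more than sampling noise (chi-square per degree of freedom 20.81 to 61.19). The script was tested on simulated data. Positions and lengths came from RefSeq GRCh38.p14, which matched 20820 rows (97.75%). Tests ran in edgeR 4.0.16, DESeq2 1.42.0 and limma 3.58.1 under R 4.3.3, and other steps in pandas 2.3.3 under Python 3.11.15.

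The isoform genes, the pathway lists and the marker lists were chosen with earlier results of these data known. Genes are named if they are isoforms or SFPQ, overlap an isoform or begin with its symbol, are among the 3 genes per direction with the smallest p past the threshold in a list or its most abundant gene in siControl, or are nearest in profile to PRKCA or PRKCQ. Some genes that this rule selects are left out of the text. The alternatives were DESeq2 size factors, no filter, DESeq2's Wald test, limma on log2(FPKM + 0.5) with and without rescaling (genes with a mean FPKM of at least 0.5), a replicate block and leaving out each library.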

Additional observations from a re-analysis of the deposited data

How the results depend on the processing

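SFPQ stayed lower and called under every alternative run. The count of isoform genes past the threshold, from which nothing is read, was 3 lower and 0 higher in each alternative on all 6 libraries, and 2 lower without siControl replicate 2, siControl replicate 3, siPSF replicate 1 or siPSF replicate 2, where PRKCE dropped out. Over all genes, 1628 were lower and 1310 higher. The counts were 1700 and 717 in limma on FPKM, 3073 and 429 after rescaling FPKM, and 928 to 1735 lower and 572 to 1405 higher when 1 library was left out, with 928 and 572 without siControl replicate 2, 1022 and 732 without siControl replicate 3, and 845 higher without siPSF replicate 1. Pathway genes called lower were 8, with 16 in limma on rescaled FPKM and 5 to 11 when 1 library was left out (5 without siControl replicate 3). Those called higher were 2, with 5 in DESeq2's Wald test, 1 in limma on FPKM, 1 after rescaling, and 1 to 5 when 1 library was left out (1 without siControl replicate 2, 5 without siPSF replicate 3). The cause was not tested. The median log2 fold change of all genes was -0.06 in limma on FPKM and -0.16 after rescaling, where PRKCD (-0.07), PRKCI (-0.16) and PRKCZ (-0.10) changed sign and PLCG1 (-0.29) and GNA11 (-0.27) passed the test. PRKCI was already below 0 in limma on FPKM without rescaling (-0.05). The log2 fold change of PRKCH was -0.78 in limma on FPKM and -0.86 after rescaling, and that of PRKCE -0.47 and -0.56. In limma 0.5 was added to FPKM before the log, and PRKCH averaged only 1.29 FPKM in siControl and 0.531 FPKM in siPSF. Its limma values are therefore not read as a weaker fall in FPKM. PRKCD (-0.03) and PRKCI (-0.07) were also below 0 in fits that left out 1 library. With a replicate block, 1640 genes were lower and 1389 higher, 10 and 4 of them pathway genes. The libraries share only a number, since deviations of same-numbered libraries correlated at -0.0222, 0.0561 and 0.0559, and 2 of 6 libraries correlated best with their own number. With 3 libraries per group, small changes of the genes near 1 CPM are the least certain.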

Other observations

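PRKCSH begins with the same letters but encodes a subunit of glucosidase II in the endoplasmic reticulum and no kinase. It stood at 412, 424 and 351 CPM in siControl and at 460, 506 and 477 CPM in siPSF. The groups did not overlap, but the difference did not pass the test (log2 fold change 0.28, SE 0.09, edgeR adjusted p 0.0619).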
